A study of Homo sapiens with 6 samples.

Results

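Amino acid transporter genes were followed in CaSki cells, an established human cervical squamous carcinoma line, treated with recombinant TGF-β1 (2 ng/mL) or left untreated in the same medium without the cytokine. The genes were taken by symbol from the families SLC1, SLC3, SLC7, SLC36, SLC38 and SLC43 and from 4 members of SLC6, and each was represented by its brightest probe set, judged by the mean of the 6 arrays. This gave 47 genes of the 19775 with a probe set of their own: 42 transporter genes and 5 transcripts whose symbols begin like a transporter's, namely SLC38A2-AS1, SLC38A4-AS1, SLC7A11-AS1, SLC7A14-AS1 and SLC7A6OS. The TGF-β1-treated and the untreated cells had 3 Affymetrix arrays each, both in RPMI1640 with serum, and the study asked which genes, those of the TGF-β pathway among them, differed with treatment. All arrays come from this 1 line, the labels name no separate cultures behind the 3 arrays of a group and state no treatment time, so p-values rest on the spread among these arrays alone, and that spread may be technical.

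Cells cannot make every amino acid that they need, and transporters bring them in, trade them against each other or release them from lysosomes. Several carriers of the SLC7 family work only when paired with a heavy chain from SLC3. SLC7A11 with SLC3A2 takes up cystine in exchange for glutamate, and the cysteine made from it is used for glutathione, the main soluble antioxidant of the cell. When amino acids run short, the factor ATF4 switches on a set of genes that includes many of these carriers.

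The values are log2 expression estimates. A difference is treated minus untreated on that scale, and a call needed an adjusted p below 0.05 (limma, Benjamini-Hochberg adjustment over all 19775 genes). Over all probe sets Pearson's r was 0.994 to 0.996 for pairs of arrays within a group and 0.992 to 0.993 for pairs across groups. RNA quality, read from the log2 ratio of 3' to 5' control probe sets for GAPDH and ACTB, gave 0.690 to 1.15 on treated and 0.770 to 1.19 on untreated arrays, with array 1 at the top of both ranges. Squamous markers matched the label, with all 8 measured above the array median of 4.16, among them SFN, KRT5 and CDH1 at levels of 13.6, 11.3 and 10.4. KRT6A, KRT17 and TP63 had no probe set of their own, and 13085 of all 19775 genes lay above the array median. Of 8 fibroblast markers 4 lay above it, and the list's mean level ran from 4.39 to 4.44 on treated and from 4.19 to 4.28 on untreated arrays. KRT14 rose by 0.77 and EPCAM fell by 0.70 on the log2 scale among the squamous markers. FAP, a cell-surface protease with a mean level of 7.66, was the 1 fibroblast marker that rose, by 0.89. DCN, THY1 and PDGFRB lay above the array median at 4.84, 4.57 and 4.36. COL6A3, PDGFRA, TCF21 and LUM lay below it at 3.84, 3.59, 3.22 and 2.49. Of 8 endothelial and immune markers 4 lay above the array median, namely PECAM1, CSF1R, CD3E and VWF at 5.67, 5.60, 4.77 and 4.57. The mean level of these 8 was 4.08 to 4.15 on treated and 4.07 to 4.10 on untreated arrays. KDR, which rose by 0.29, CDH5, which fell by 0.41, PTPRC and CD14 lay below the median at 2.82, 3.11, 2.66 and 3.58. With single arrays left out, that list had 0 rises and 0 to 1 falls. The part of these markers in the transporter results was not tested. In such bulk samples, fewer cells of a type and less RNA per cell cannot be told apart.

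Most transporter genes did not pass the test, and those that did moved mostly downwards. Of the 47 genes 1 rose and 5 fell, and these 6 are 12.8% of the genes against 8.50% of all genes tested (4.03% higher and 4.47% lower). The median difference was 0.00 for the 47 genes and 0.00 for all genes. All 6 lay above the array median on average, where they are 20.7% of 29 genes, against 12.0% of all genes above that level (5.55% higher and 6.43% lower). The falls were SLC43A3, SLC7A2, SLC7A11, SLC6A6 and SLC38A1, and the rise was SLC7A1. Treated and untreated values did not overlap for 11 of the 47 genes, 5 higher and 6 lower, which is 23.4% against 29.2% of all genes (12.9% higher and 16.3% lower).

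**Figure D1:**
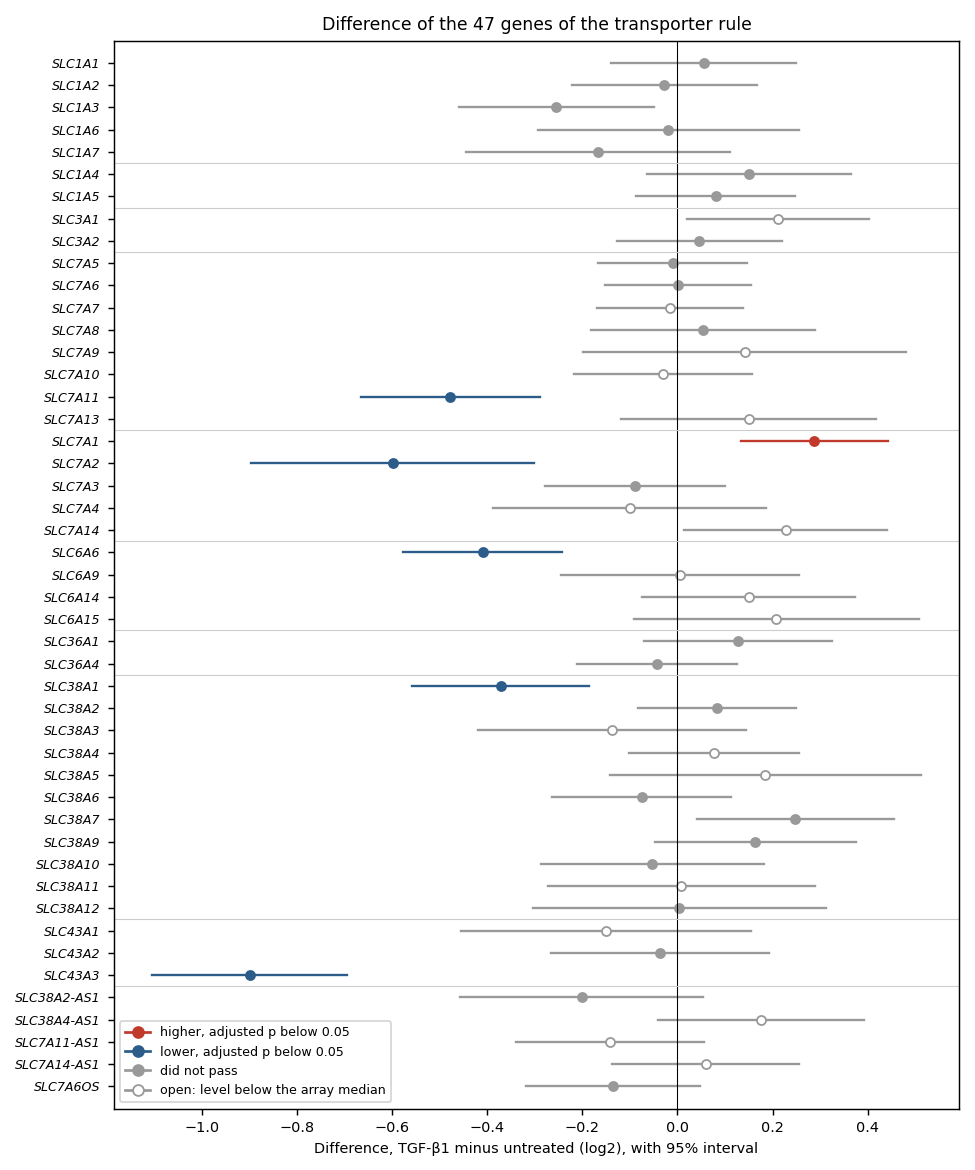
Difference between TGF-β1-treated and untreated cells (x axis, log2, points with 95% intervals of the limma fit) for each of the 47 genes (y axis), in groups by transport role. Red marks the 1 rise and blue the 5 falls at an adjusted p below 0.05, grey the 41 genes that did not pass, and open points the genes whose level lay below the array median.

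Promoter sequence was taken from RefSeq for GRCh38.p14, which holds 58 windows for 35 of the 47 genes, each from 250 bases before to 50 after an annotated start. No window was available for SLC7A11, SLC43A3, SLC6A6 or SLC7A2, so SLC7A1 and SLC38A1 were the only called genes searched. The windows were searched on both strands for TGATGNAA, the core of the amino acid response element that ATF4 binds, because so many carriers are known ATF4 targets. It was found for 6 of the 35 genes (17.1%), against 4.46% of all 27305 genes in the table, and in 10.3% of the 58 windows against 3.62% of all windows. The match, in capitals, is shown within 30 bases on the strand of the gene, as a description of these letters and not as a site shown to be used.
SLC7A1 chr13:29595663-29595692, minus strand: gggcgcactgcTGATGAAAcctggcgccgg
SLC38A1 chr12:46266502-46266531, minus strand: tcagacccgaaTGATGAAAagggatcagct
SLC3A2 chr11:62881719-62881748, plus strand: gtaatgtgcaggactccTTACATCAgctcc
SLC1A4 chr2:64989381-64989410, plus strand: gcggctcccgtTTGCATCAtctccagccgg
SLC1A5 chr19:46784893-46784922, minus strand: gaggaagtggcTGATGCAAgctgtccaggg
SLC1A3 chr5:36596357-36596386, plus strand: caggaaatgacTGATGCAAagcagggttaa

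The 6 genes with this core did not share a direction. SLC7A1 rose, SLC38A1 fell, and SLC3A2, SLC1A4, SLC1A5 and SLC1A3 differed by 0.05, 0.15, 0.08 and -0.25 without passing. SLC7A1 and SLC38A1 carry the same 8 letters TGATGAAA, from base 8 to base 15 after the start of SLC7A1 and from 4 bases before to base 4 after a start of SLC38A1. In SLC3A2 and SLC1A4 the core lies on the strand opposite to the gene. The 250 bases before the start are shown for the riser and for the start of SLC38A1 that holds the core, with other matches in capitals. These are TGACNNNGC, the antioxidant response element bound by NRF2, in SLC7A1, and TGACTCA, the site of AP-1 factors, in SLC38A1.
SLC7A1 chr13:29595689-29595938, minus strand: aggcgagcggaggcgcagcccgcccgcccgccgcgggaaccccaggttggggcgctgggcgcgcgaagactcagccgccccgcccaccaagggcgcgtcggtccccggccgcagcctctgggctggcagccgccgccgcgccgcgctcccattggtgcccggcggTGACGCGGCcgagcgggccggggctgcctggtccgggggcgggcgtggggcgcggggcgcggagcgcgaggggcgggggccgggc
SLC38A1 chr12:46266517-46266766, minus strand: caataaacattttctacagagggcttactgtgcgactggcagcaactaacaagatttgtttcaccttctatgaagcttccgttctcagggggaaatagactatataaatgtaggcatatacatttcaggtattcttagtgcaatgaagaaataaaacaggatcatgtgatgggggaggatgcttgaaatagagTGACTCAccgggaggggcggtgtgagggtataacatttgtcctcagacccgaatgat

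TGACNNNGC was found for 8 of the 35 genes (22.9%, against 16.1% of all genes), but by window the shares were near each other, 13.8% of the 58 windows against 13.3% of all windows. TGACTCA was found for 7 genes (20.0%, against 6.05%), and in 12.1% of the windows against 4.95%. Shares by gene also depend on the number of windows a gene has, 58 for 35 genes here against 35116 for 27305 genes in the table. TGACNNNGC can overlap TGACTCA, as it does in SLC3A2, where both begin 37 bases before the start.

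SLC7A11 was lower with TGF-β1. This light chain carries the cystine and glutamate exchange. On the treated arrays it read 8.99, 9.01 and 8.98, and on the untreated arrays 9.55, 9.33 and 9.54. All treated values lay below all untreated ones, and untreated array 2 lay nearest to them. The difference was -0.48 ± 0.08 (SE, limma adjusted p = 0.0114), which is 1.39-fold lower, with a 95% interval from -0.67 to -0.29. Its other 2 probe sets differed by -0.46 and -0.40, and the second of these did not pass over all named probe sets (limma adjusted p = 0.164). Leaving out untreated array 3 ended the call (-0.45, adjusted p = 0.0536), as did leaving out both arrays numbered 1 (-0.44, adjusted p = 0.0902), and over the 6 arrays left out in turn the adjusted p ran from 0.0132 to 0.0536. SLC7A11-AS1, the antisense transcript, averaged 2.99 on the treated and 3.13 on the untreated arrays, below the array median, and did not pass (-0.14, limma adjusted p = 0.38).

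SLC3A2, the heavy chain that SLC7A11 needs to reach the membrane, did not pass. It read 9.25, 9.40 and 9.37 on the treated and 9.35, 9.24 and 9.30 on the untreated arrays, and the groups overlapped. Its difference of 0.05 did not pass (limma adjusted p = 0.766), and the 95% interval ran from -0.13 to 0.22. That interval does not reach the -0.48 of SLC7A11. Whether the differences of these 2 genes differ was not tested. SLC3A1, the heavy chain known from kidney and gut, lay at 3.31, below the array median, and differed by 0.21 without passing or overlapping between groups.

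Other light chains gave no call. SLC7A5, which imports large neutral amino acids such as leucine together with SLC3A2, read 10.94, 10.93 and 10.95 on the treated and 11.01, 10.90 and 10.94 on the untreated arrays. Its difference of -0.01 had a 95% interval from -0.17 to 0.15, and its sign depended on the scaling: 0.02 after repeated quantile normalisation. SLC7A6, an exchanger of cationic for neutral amino acids, differed by 0.00, with an interval from -0.15 to 0.15. Over the 7 light chains that did not pass, SLC7A5, SLC7A6, SLC7A7, SLC7A8, SLC7A9, SLC7A10 and SLC7A13, differences ran from -0.03 to 0.15. Of these 4 lay below the array median.

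**Figure D2:**
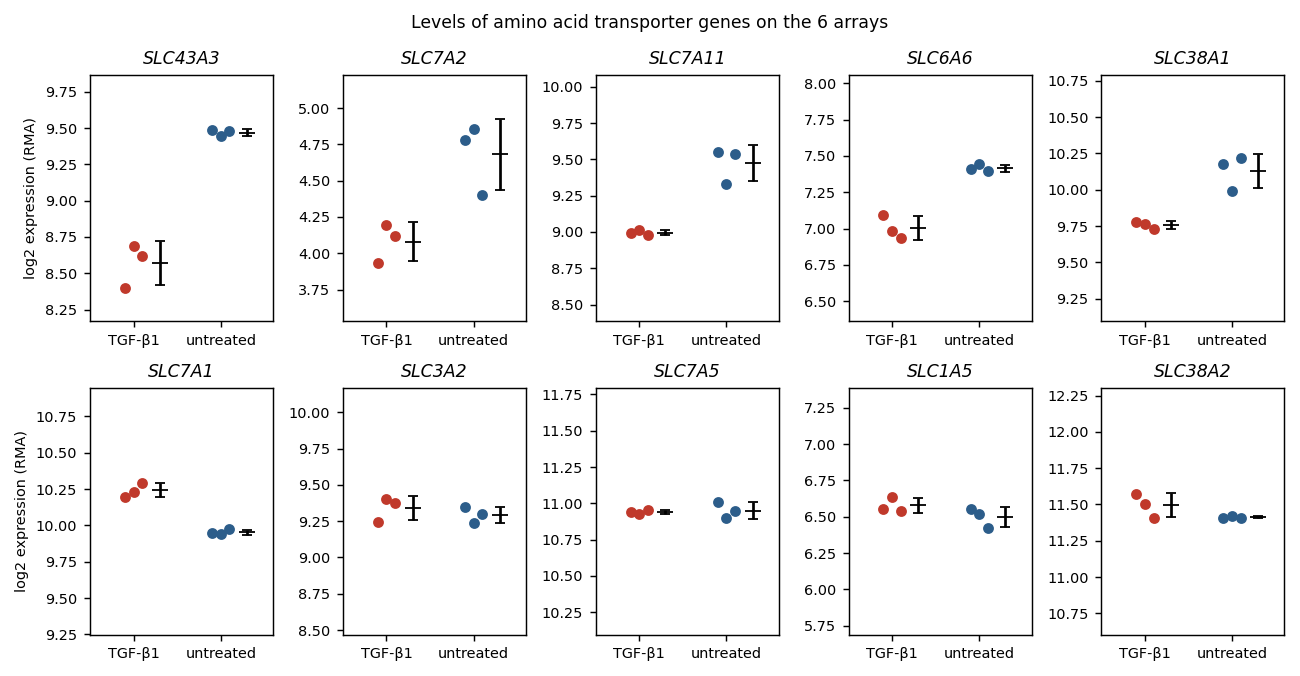
Level (y axis, log2 RMA values) of 10 transporter genes on the 3 TGF-β1-treated (red) and 3 untreated (blue) arrays, with mean and SD in black; each panel spans the same range of 1.7 log2 units around its own mean. The 2 groups separate for SLC43A3, SLC7A2, SLC7A11, SLC6A6, SLC38A1 and SLC7A1 and overlap for SLC3A2, SLC7A5, SLC1A5 and SLC38A2.

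The carriers of cationic amino acids held both a rise and a fall. SLC7A1, the widely expressed carrier of arginine and lysine, read 10.20, 10.23 and 10.29 on the treated arrays, against 9.95, 9.94 and 9.97 on the untreated arrays. No values overlapped, and both groups were tight. The rise was 0.29 ± 0.07 (SE, limma adjusted p = 0.0373), or 1.22-fold, with a 95% interval from 0.13 to 0.44. It passed without treated array 1 (adjusted p = 0.0499) and was lost without treated array 2 or 3 or untreated array 1, 2 or 3 (adjusted p = 0.101, 0.109, 0.107, 0.123 and 0.103), while the difference stayed between 0.26 and 0.31. Its next 2 probe sets by level differed by 0.29 and 0.20, and the 2 below the array median by -0.15 and 0.05. The mean of all 5 differed by 0.14 (limma adjusted p = 0.306), and over all named probe sets none of them passed (adjusted p = 0.0699 for the representative one).

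SLC7A2, a cationic carrier known for supplying arginine in macrophages and liver, was 1.51-fold lower. It read 3.93, 4.19 and 4.12 on the treated and 4.78, 4.86 and 4.40 on the untreated arrays, so the groups did not overlap and untreated array 3 lay closest to the treated ones. The difference was -0.60 ± 0.13 (SE, limma adjusted p = 0.0287). Its treated mean of 4.08 lay below the array median, and another of its probe sets, with a mean of 4.005, went the other way at 0.19 without passing, while the third differed by -0.37 without passing. The mean of the 3 differed by -0.26, and the call was lost (adjusted p = 0.158). The call was kept without untreated array 3 (-0.74, adjusted p = 0.0126) and lost without each of the other 5 arrays (adjusted p = 0.0557 to 0.0949). SLC7A3, SLC7A4 and SLC7A14 did not pass, at -0.09, -0.10 and 0.23, and only SLC7A14 had groups that did not overlap.

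SLC43A3 had the largest difference of the 47 genes. It is grouped by sequence with the leucine carriers SLC43A1 and SLC43A2, but is known as a carrier of purine nucleobases. The treated arrays read 8.40, 8.69 and 8.62 and the untreated arrays 9.49, 9.44 and 9.48. The groups lay far apart compared with their spread, 0.15 in treated and 0.02 in untreated cells (SD, n = 3 each). The difference was -0.90 ± 0.09 (SE, limma adjusted p = 0.000888), or 1.87-fold lower, with a 95% interval from -1.11 to -0.69. Its other probe set, with a mean of 6.75, differed by -0.99 and passed too (limma adjusted p = 0.000514 over all named probe sets). Both probe sets carry a suffix for probes that several transcripts can share, so the gene had no value where such probe sets were left out. The call passed whichever array was left out, with an adjusted p between 0.00195 and 0.00715. SLC43A1 and SLC43A2 did not pass, at -0.15 and -0.04.

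**Figure D3:**
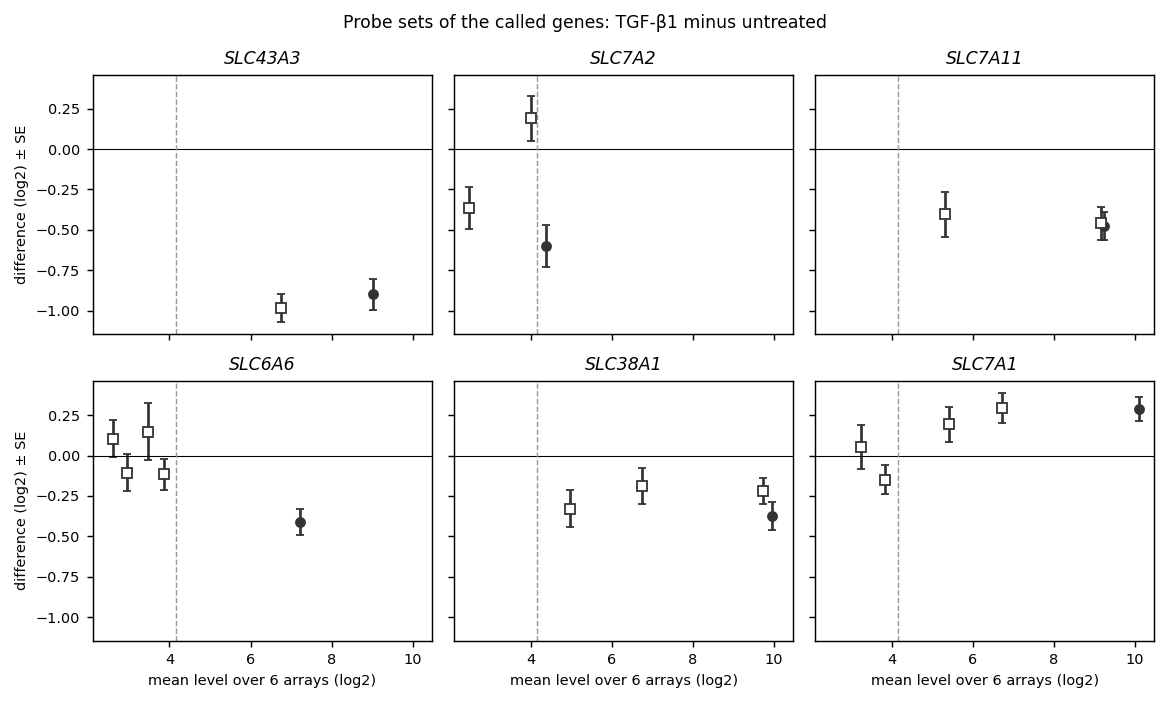
Difference (y axis, log2, with SE) against mean level (x axis, log2) for every probe set of the 6 called genes; filled circles are the representative probe sets, open squares the others, and the dashed line is the array median of 4.16. All probe sets of SLC43A3, SLC7A11 and SLC38A1 lie below 0, while dim probe sets of SLC6A6, SLC7A2 and SLC7A1 scatter on both sides.

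Among the sodium- and chloride-coupled carriers, SLC6A6 fell. It takes up taurine, an osmolyte made from cysteine. Its level was 7.10, 6.98 and 6.94 on the treated arrays, against 7.41, 7.44 and 7.40 on the untreated arrays, with no overlap. The difference was -0.41 ± 0.07 (SE, limma adjusted p = 0.0132), or 1.33-fold lower. The call was lost without treated array 2 or untreated array 2 (-0.40 and -0.40, adjusted p = 0.052 and 0.0579). Its other 4 probe sets lay below the array median and differed by -0.12 to 0.15 without passing, so the fall rests on 1 probe set, and the mean of all 5 differed by -0.08 (adjusted p = 0.578). SLC6A9, the glycine carrier, SLC6A14, which takes up neutral and cationic amino acids, and SLC6A15, a carrier of branched-chain amino acids and proline, lay below the array median and did not pass, at 0.01, 0.15 and 0.21. Of these, SLC6A14 had groups that did not overlap.

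The sodium-coupled neutral carriers of family SLC38 also held 1 fall. SLC38A1, which takes up glutamine, read 9.78, 9.76 and 9.73 on the treated arrays and 10.18, 9.99 and 10.22 on the untreated arrays. The treated values were close together and all lower, and untreated array 2 was the nearest. The difference was -0.37 ± 0.08 (SE, limma adjusted p = 0.0295), or 1.29-fold lower, with a 95% interval from -0.56 to -0.19. Its 4 probe sets all differed downwards, by -0.37 to -0.19, and over all named probe sets the representative one alone passed (limma adjusted p = 0.0495). The call was kept without untreated array 2 (-0.44, adjusted p = 0.0323) and lost without each of the other 5 arrays (adjusted p = 0.0571 to 0.108).

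SLC38A2, the carrier that cells raise when amino acids are scarce, did not pass. It read 11.58, 11.50 and 11.41 on the treated arrays, against 11.40, 11.42 and 11.41 on the untreated arrays. Treated arrays 1 and 2 were higher and treated array 3 lay among the untreated ones, and the difference was 0.08 with a 95% interval from -0.08 to 0.25. SLC38A7, which exports glutamine from lysosomes, had higher values on all treated arrays, at 6.27, 6.11 and 6.35, than on the untreated ones, at 6.09, 5.90 and 6.01. It did not pass (0.25 ± 0.09, SE, limma adjusted p = 0.143), except where only genes above a log2 level of 6 were tested (adjusted p = 0.0423). SLC38A9, a lysosomal arginine sensor, differed by 0.16 without passing. The remaining 7, SLC38A3, SLC38A4, SLC38A5, SLC38A6, SLC38A10, SLC38A11 and SLC38A12, did not pass either, and over all 10 uncalled genes of the family differences ran from -0.14 to 0.25.

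Glutamate carriers and the exchangers of neutral amino acids in family SLC1 gave no call. SLC1A3, a glutamate carrier of glia that some tumours use for aspartate, came closest. It read 6.71, 6.92 and 6.70 on the treated arrays and 6.94, 7.11 and 7.04 on the untreated arrays, and the groups just missed each other (-0.25 ± 0.09, SE, limma adjusted p = 0.131). With genes above a log2 level of 6 alone it passed (adjusted p = 0.037). SLC1A5, the glutamine exchanger of many tumour cells, read 6.55, 6.64 and 6.54 on the treated and 6.55, 6.52 and 6.42 on the untreated arrays, and differed by 0.08 with a 95% interval from -0.09 to 0.25. SLC1A4, its relative, which prefers alanine, serine and cysteine, differed by 0.15, and SLC1A1, SLC1A2, SLC1A6 and SLC1A7 by 0.05, -0.03, -0.02 and -0.17. Of the 7 SLC1 genes, 1 was lower and 0 higher at an unadjusted limma p below 0.05. The 1 lower is 14.3%, against 12.6% of all genes lower and 10.6% higher.

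SLC36A1, a proton-coupled carrier of small neutral amino acids, and SLC36A4, a carrier of proline and tryptophan, differed by 0.13 and -0.04 without passing. Of the 5 transcripts that are not transporters, none was called by limma and 0 had an unadjusted p below 0.05, and their differences lay between -0.20 and 0.17. Over all 41 uncalled genes, differences ran from -0.25 to 0.25, and the 95% intervals reached from -0.46 to 0.51.

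**Figure D4:**
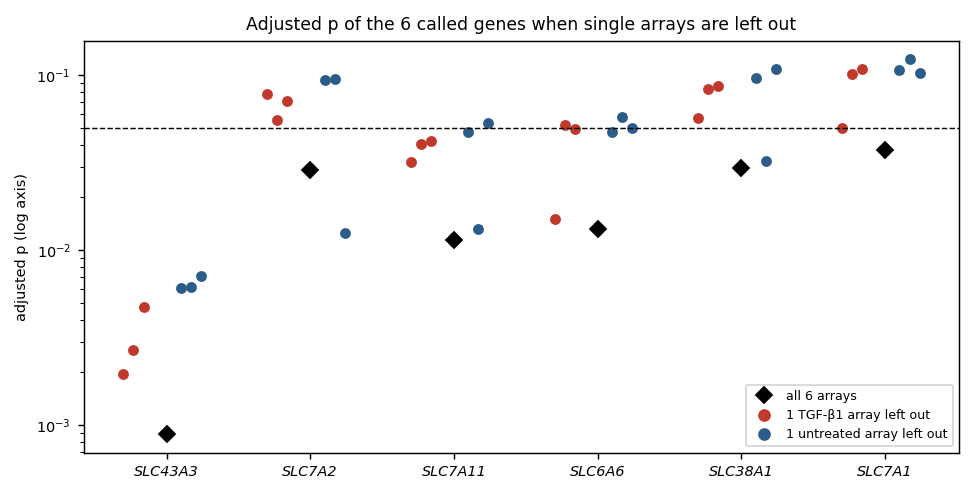
Adjusted p (y axis, log scale) of the 6 called genes in the fit of all 6 arrays (black diamonds) and with a single TGF-β1 (red) or untreated (blue) array left out; the dashed line is 0.05. SLC43A3 stays below the line in all 7 fits, SLC7A11 crosses it in 1 and SLC6A6 in 2, and SLC7A2, SLC38A1 and SLC7A1 in 5 each.

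Of a list of genes of cystine and glutathione metabolism, which also holds thioredoxin genes and the regulators NFE2L2 and BACH1, part was lower. Of its 18 measured genes 7 fell and 0 rose by limma. The falls are 38.9%, against 4.47% of all genes and 6.43% of those above the array median, where all 18 lie. At an unadjusted limma p below 0.05, 9 were lower and 2 higher. These are 50% and 11.1%, against 12.6% and 10.6% of all genes. The median difference was -0.20 against 0.00 for all genes. The list was drawn up with earlier results of these data known, so it is described and not tested. GSR, which regenerates glutathione, read 5.88, 6.15 and 6.21 on the treated and 6.73, 7.05 and 6.91 on the untreated arrays, and differed by -0.82 (limma adjusted p = 0.00489). TXNRD1, thioredoxin reductase, differed by -0.60, GCLC, the catalytic subunit of the first enzyme of glutathione synthesis, by -0.56, and CHAC2, which breaks glutathione down, by -0.53. These 4 passed whichever array was left out. With probe sets averaged per gene, TXNRD1 differed by -0.20 and lost its call (adjusted p = 0.102), and GCLC differed by -0.31 (adjusted p = 0.044).

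The remaining falls of that list were smaller. NFE2L2, which encodes the antioxidant factor NRF2, fell by 0.37, thioredoxin TXN by 0.30 and GCLM, the partner subunit of GCLC, by 0.30 on the log2 scale. NFE2L2 was lost without treated array 2 or untreated array 1, 2 or 3 (adjusted p = 0.0681, 0.058, 0.0653 and 0.0772), and with its probe sets averaged (-0.17, adjusted p = 0.18). TXN and GCLM were lost whichever array was left out (adjusted p = 0.0504 to 0.103 and 0.0668 to 0.132), so the count was 4 or 5 without single arrays. GPX4, which uses glutathione to repair lipid peroxides, and BACH1, a repressor of antioxidant genes, did not pass, at 0.05 and -0.10.

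The list of ATF4 and its targets showed no shared direction. Of 24 measured genes 3 rose and 2 fell, which is 20.8%, against 8.50% of all genes and 12.0% of those above the array median, where all 24 lie. At an unadjusted limma p below 0.05, 5 were higher and 8 lower. These are 20.8% and 33.3%, against 10.6% and 12.6% of all genes. The median difference was -0.06. ATF4 itself differed by 0.01, with a 95% interval from -0.15 to 0.17, and ASNS, the asparagine synthetase that marks amino acid shortage, by 0.02, from -0.14 to 0.18. ATF3, a stress factor, rose by 1.35 (limma adjusted p = 8.26e-05), but its probe set without a shared-sequence suffix differed by -0.14, and the mean of its probe sets by 0.76. SESN2, a leucine sensor, rose by 0.57 and the ER protein gene HERPUD1 by 0.32. PSPH, the last enzyme of serine synthesis, was lower by 0.53 and XPOT, a tRNA exporter, by 0.42. HERPUD1 and PSPH were each lost without 5 of the 6 arrays in turn and XPOT without 4 (adjusted p up to 0.0802, 0.086 and 0.112), so falls numbered 0 to 2 and rises 2 to 5. With probe sets averaged, HERPUD1 and XPOT also lost their calls, at 0.09 and -0.28 (adjusted p = 0.542 and 0.105), and PSPH differed by -0.32.

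**Figure D5:**
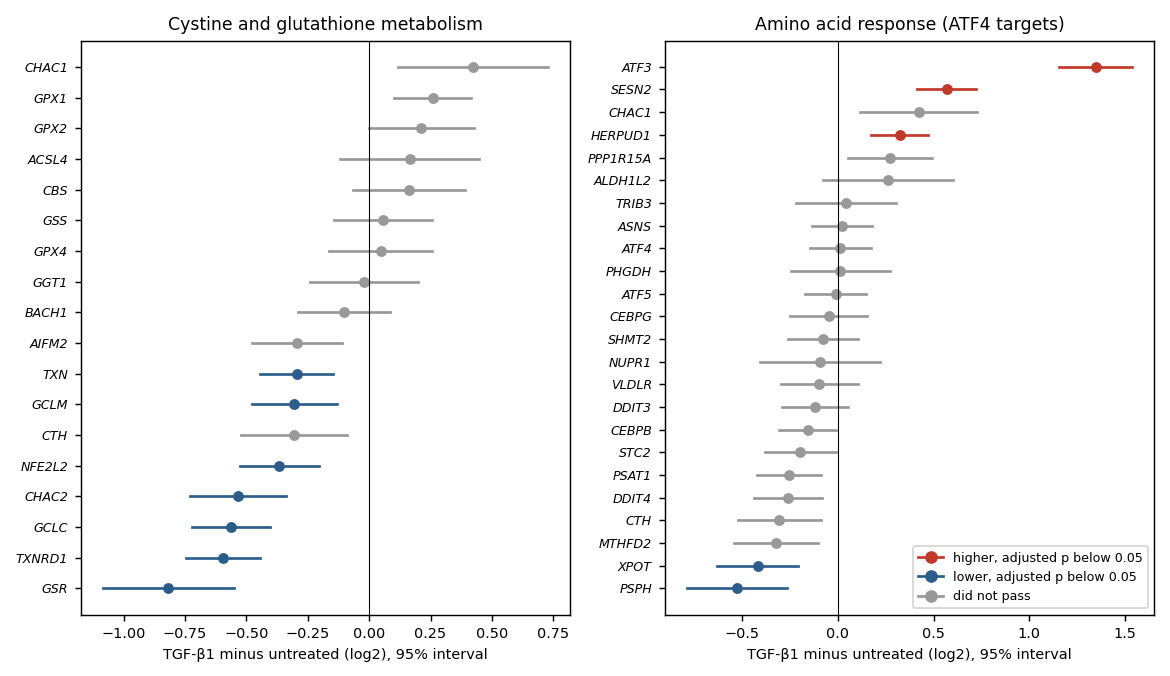
Difference between TGF-β1-treated and untreated cells (x axis, log2, points with 95% intervals), with genes ordered by size. Shown are 18 genes of cystine and glutathione metabolism (left) and the 24 genes of the list of ATF4 and its targets (right). Red marks rises and blue falls at an adjusted p below 0.05, grey genes that did not pass. The left list has 7 falls and no rise, the right list 3 rises and 2 falls.

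Among 30 measured enzymes of amino acid metabolism 7 fell and 1 rose, with a median of -0.02. The falls are 23.3%, against 4.47% of all genes and 6.43% of those above the array median, where 26 of the 30 lie. The rise is 3.33%, against 4.03% and 5.55%. KYNU, which acts in tryptophan breakdown, was lower by 0.70, ODC1, which turns ornithine into polyamines, by 0.62 and GLUD1, glutamate dehydrogenase, by 0.47, and these 3 passed whichever array was left out. SHMT1, a folate enzyme that interconverts serine and glycine, was lower by 0.68 with 1 probe set, while its probe set without suffix differed by 0.13 and the mean of its probe sets by -0.28 (adjusted p = 0.165). Its call was lost without treated array 1 or 3 or untreated array 2 or 3 (adjusted p = 0.11, 0.118, 0.131 and 0.138). PSPH fell as above. ALDH18A1, the first enzyme of proline synthesis, and ARG2, mitochondrial arginase, were lower by 0.30 and 0.41 and were lost whichever array was left out (adjusted p up to 0.152 and 0.127), and the mean of the ARG2 probe sets differed by -0.26 (adjusted p = 0.0727). The rise was ASL, an enzyme of arginine synthesis, by 0.58, lost without treated array 2 or 3 or untreated array 1 or 2 (adjusted p = 0.0679, 0.0655, 0.0694 and 0.0745). Without single arrays there were 3 to 5 falls.

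Genes of amino acid sensing to the kinase mTORC1 were nearly all uncalled: of 33 measured, SESN2 rose and 0 fell by limma, with 7 higher and 2 lower at an unadjusted p below 0.05 and a median of 0.00. The 1 call is 3.03%, against 8.50% of all genes, and the unadjusted shares are 21.2% higher and 6.06% lower, against 10.6% and 12.6% of all genes. Rises numbered 1 to 3 there when single arrays were left out. Of 32 other amino acid and peptide carriers, SLC17A5, a lysosomal exporter of sialic acid, fell by 0.30 (limma adjusted p = 0.0498), and the call was lost whichever array was left out (adjusted p = 0.0701 to 0.16) and with its probe sets averaged (-0.17, adjusted p = 0.291). That 1 call is 3.12% of the list, against 8.50% of all genes. No other carrier of that list passed, with 2 higher and 3 lower at an unadjusted limma p below 0.05. These are 6.25% and 9.38%, against 10.6% and 12.6% of all genes. Of 14 known regulators and partners of SLC7A11, ATF3 rose, and MYC, SMAD3 and NFE2L2 fell, by 0.97, 0.71 and 0.37. That makes 28.6% called, against 8.50% of all genes and 12.0% of those above the array median, where all 14 lie. The mean of the SMAD3 probe sets differed by -0.40 (limma adjusted p = 0.0129). KEAP1, which holds NRF2 in check, and CD44, a surface receptor that stabilises the SLC7A11 protein, did not pass, at -0.16 and 0.20.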

How the data were processed

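The deposited table holds log2 expression values for each probe set on each array. The submitters' processing notes name RMA, run in Affymetrix Expression Console, which corrects background, quantile-normalises arrays and summarises probes; no version or option is stated. RMA compresses differences at low signal. There is no read depth, and the number of arrays limits the precision.

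Probe sets were named from the platform annotation, and symbols were updated by gene number against RefSeq (GRCh38.p14), which changed 0 of them. Of 54675 probe sets 41091 had 1 symbol, 1801 several, 62 were controls and 11721 were unnamed here. The 47 genes had 111 probe sets.

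The comparison used limma 3.58.1 (lmFit and eBayes, R 4.3.3) with no covariate and no filter. In simulated data with 200 changed genes, it recovered 66% of changes of 1.5-fold and 90% of those of 2-fold. Of the calls made there, 4.88% were false. Smaller folds were not simulated. Alternatives covered scaling, filters, probe set choice, variance model, array weights, replicate block and left-out arrays. Named in full were called genes, genes differing by more than 0.5, and SLC7A11, SLC3A2, SLC7A5, SLC1A5, SLC38A1 and SLC38A2; of each pathway list, up to 6 called genes. GCLM, ALDH18A1, ARG2 and uncalled list genes were named after their values were seen. The members and lists were chosen with earlier results of these data known.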

Additional observations from a re-analysis of the deposited data

How the results depend on the processing

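Array number and signal limit these results: with 3 arrays a group, the smaller differences stand near the threshold. The counts of 1 rise and 5 falls held under repeated quantile normalisation, median centring, testing only genes above the array median, a trended robust variance, array weights and, added after seeing the data, a covariate for the 3' over 5' signal. Rises numbered 2 where only genes above a log2 level of 6 were tested (SLC38A7 joined, and SLC1A3 took the place of SLC7A2 among the falls), and 0 with probe sets averaged per gene, without suffixed probe sets, with treat against a fold of 1.2, and without both arrays numbered 1 (added after seeing the data). Falls numbered 4 without suffixed probe sets, where SLC43A3 has no value, 3 with the mean of the probe sets, 1 with treat (SLC43A3) and 2 without both arrays numbered 1 (SLC43A3 and SLC6A6). Without single arrays there were 0 to 1 rises and 2 to 3 falls. Calls over all 19775 genes also dropped in these fits. They numbered 404 to 692 higher and 318 to 634 lower, against 796 and 884 with all 6 arrays.

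With the replicate number as a block there were 0 rises and 4 falls, since SLC7A1 and SLC38A1 were lost (adjusted p = 0.0645 and 0.0554). The numbers were not taken as a pairing because the labels do not say what they mark. Deviations of same-numbered arrays correlated at 0.18, 0.04 and 0.08. For 4 of 6 arrays the closest array of the other group had the same number. These values do not settle whether the numbers mark pairs.

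Signs turned for SLC7A5, at 0.0202 after quantile normalisation, -0.0365 to 0.0196 over single arrays left out, and 0.0191 without both arrays numbered 1, and without suffixed probe sets for ATF3 (-0.14) and SHMT1 (0.13), where another probe set represents the gene. For the other values the cause was not tested. Of 175 repeats for named transporter genes, 139 kept direction and side of the threshold and 33 lost the call. These repeats include SLC3A2, SLC7A5, SLC1A5 and SLC38A2, which had no call to lose. The losses were 10 of 18 repeats for SLC7A1, 8 of 18 for SLC38A1 and 8 of 17 for SLC7A2. They were 4 of 18 for SLC6A6, 3 of 18 for SLC7A11 and 0 of 17 for SLC43A3.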
